A study of Mus musculus with 9 samples.

Results

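The comparison described here sets gastrocnemius muscle of mice given cisplatin together with an oral extract, named RP in the labels, against gastrocnemius of untreated mice. It uses 6 of the 9 samples in the series, 3 labelled RP and 3 labelled Normal, and every gene with enough counts to test. All mice were female C57BL/6 animals, 4 weeks old. Normal mice received saline 4 times, on alternate days, and were given distilled water by mouth over 9 days. RP mice received cisplatin at 3 mg/kg into the peritoneum on the same 4 occasions and RP at 100 mg/kg by mouth over the same 9 days. The remaining group, Cisplatin (n = 3), received the same cisplatin with water and is given beside the other groups as a reference. The series title names the extract as one of Paeonia lactiflora, a peony. No group received the extract without cisplatin, so a difference between RP and Normal cannot be divided between the drug and the extract. Whether each sample is a separate mouse is not stated in the labels, and the spread that the tests use may therefore be partly technical.

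Cisplatin is a platinum compound that crosslinks DNA and is used against solid tumours, and loss of muscle mass is a known adverse effect. DNA damage stabilises the transcription factor p53, which raises genes for cell cycle arrest, DNA repair and apoptosis. In wasting muscle, FoxO transcription factors and glucocorticoids raise the ubiquitin ligases Fbxo32 (atrogin-1) and Trim63 (MuRF1), which mark muscle proteins for the proteasome. Cisplatin also harms dividing cells, among them the blood precursors of the bone marrow, and muscle tissue holds fibroblasts, tendon cells, blood and immune cells beside its fibres.

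Libraries were read from the 3′ end of transcripts, so counts were not scaled to gene length, and levels are compared between samples and not between genes. The deposited tables held 8196030 to 8677236 counts in Normal libraries and 9178613 to 9826089 in RP libraries. Levels are given as CPM, counts brought to the same library total with TMM scaling, and fold changes as log2 with standard errors (SE) from edgeR's quasi-likelihood test. A gene was called when its Benjamini-Hochberg adjusted p over all 12859 genes tested was under 0.05, and only called genes are said to have risen or fallen. The tissue label was checked against 14 genes of skeletal muscle fibres, such as Acta1, Ckm and Myh4. Their summed level was 139189 to 164076 CPM in Normal and 154670 to 180913 CPM in RP, and none of the 14 was called by edgeR or limma-voom and 1, Actn3, by DESeq2 (3 had an unadjusted p under 0.05 and a higher level, 1 a lower level). Rn45s, a ribosomal RNA precursor, took 12.6% to 12.8% of counts in Normal and 7.63%, 7.38% and 11.8% in RP replicates 1, 2 and 3. With Rn45s left out, the counts of called genes were the same, 24 higher and 41 lower.

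Muscle given extract with cisplatin differed from untreated muscle in 65 called genes, 24 higher and 41 lower in RP. These were 0.187% and 0.319% of the genes tested. Genes of the p53 response, clock repressors and a pair of interferon-inducible genes were among those that rose. Globin genes, tendon matrix genes and genes of class II antigen presentation were among those that fell. At an unadjusted p under 0.05, 768 genes were higher (5.97%) and 881 lower (6.85%). All 3 RP libraries lay above all 3 Normal libraries in 1241 genes (9.65%) and below them in 1226 (9.53%), and the groups did not overlap in any of the 65 called genes. In the same fit, 54.5% of genes were called in Cisplatin against Normal and 48.8% in RP against Cisplatin, comparisons that share libraries with this one. An estimate beyond 1 on the log2 scale in either direction was found for 4.38% of genes in RP against Normal and for 34.1% in Cisplatin against Normal. The median over all genes was -0.01 in RP against Normal.

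The number of called genes depended on the method. DESeq2 called 103 genes higher and 126 lower, and limma-voom 21 and 45. With libraries scaled by their totals alone, 36 genes were higher and 24 lower, so the larger share was then higher. Leaving out 1 library at a time gave between 8 and 59 genes higher and between 14 and 62 lower. The fewest calls came without Normal replicate 1 or RP replicate 1 (8 higher and 14 lower in each case), and RP replicate 3 (8 and 20) and Normal replicate 3 (10 and 23) also mattered. Omitting Cisplatin replicate 2, which is in neither group compared but shares the filter and the estimate of spread, left 10 and 30. More were called without RP replicate 2 (59 and 57), Normal replicate 2 (42 and 58) or Cisplatin replicate 3 (40 and 62). Of the 65 genes, 22 were still called without Normal replicate 1, 22 without RP replicate 1, 24 without RP replicate 3 and 30 without Normal replicate 3. All 65 genes kept their direction in every alternative that tested them, which was all 18 except for Wif1, Clec7a and C130080G10Rik, left out by the 5 CPM filter. Of the 65, 18 were called in all 18, 7 that rose (Cdkn1a, Zfp365, Ciart, Nr1d1, Pfkfb3, Slc25a25 and Stard3) and 11 that fell (6 globin genes, Alas2, Fmod, Cd74, Retnla and Ccr2). Gdf15 was called in all 9 fits with a library left out, and its adjusted p reached 0.0801 in another alternative. Just inside the threshold lay Ptms (adjusted p = 0.0468), Eda2r and Ctxn3 (both 0.0478), and just outside it Bdnf (0.0530), Gas1 and Dusp26 (both 0.0538).

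**Figure D1:**
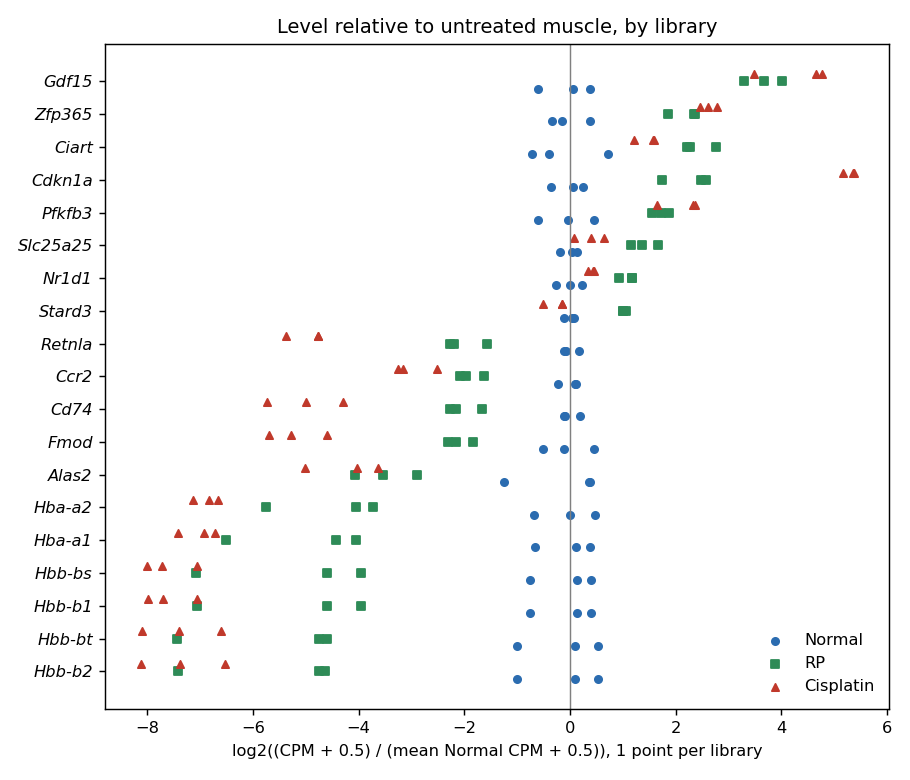
Level of 19 genes called whichever library was left out, as log2 of CPM plus 0.5 relative to the Normal mean, with 1 point per library. RP points of the 8 genes that rose lie right of all Normal points and those of the 11 that fell lie left of them, and RP replicate 3 reaches the Cisplatin points for the beta globin genes.

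RP libraries were not alike in their distance from untreated muscle. In a principal component analysis of all tested genes the first component held 67.0% of the variance and separated Cisplatin (75.6 to 96.6) from Normal (-56.8 to -50.4). RP replicates 1, 2 and 3 lay at -26.5, -46.1 and -22.0 on that component, so all 3 lay on the Normal side, and replicate 2 was nearest. On the second component, with 7.42% of the variance, RP (-22.5 to -13.1) did not overlap Normal (15.9 to 19.7). That component also divided the Cisplatin group, with replicates 1 and 2 at -15.7 and -13.3, within the RP range, and replicate 3 at 32.9. Among the 65 called genes, RP replicate 2 was the RP library nearest the Normal mean in 45, and RP replicate 3 was the furthest in 35. Since the genes were called from these libraries, these counts are a description.

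**Figure D2:**
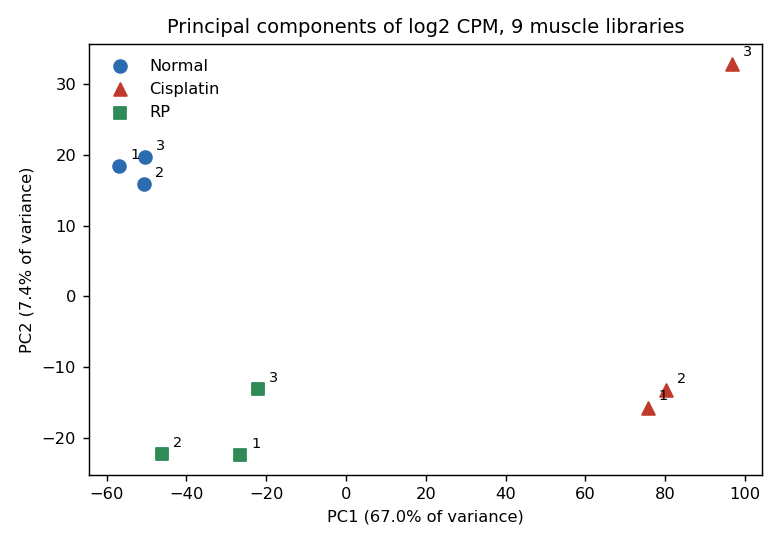
The 9 libraries on the first 2 principal components of log2 CPM over all tested genes, with the share of variance on each axis. RP libraries lie between -46.1 and -22.0 on the first component, near Normal, and are apart from Normal on the second. Cisplatin replicates 1, 2 and 3 lie at -15.7, -13.3 and 32.9 on the second.

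The ubiquitin ligases named in the series title were not called between RP and untreated muscle. Fbxo32 lies at chr15:58175879-58214932 (GRCm38, minus strand) and Trim63 at chr4:134315120-134329629 (plus strand). Fbxo32 stood at 343, 472 and 334 CPM in Normal and at 550, 292 and 659 CPM in RP, against 8155 to 11868 CPM in Cisplatin. The groups overlapped, with RP replicate 2 below every Normal library (log2 fold change 0.39, SE 0.26, adjusted p = 0.566). Trim63 stood at 490, 659 and 486 CPM in Normal and 587, 462 and 797 CPM in RP, again overlapping (0.18, SE 0.20, adjusted p = 0.776). Without RP replicate 3 the estimates were 0.14 for Fbxo32 and -0.051 for Trim63, and without RP replicate 2 they were 0.66 and 0.35. Of 21 muscle ubiquitin ligases, none was called by edgeR, DESeq2 or limma-voom, and 3 had an unadjusted p under 0.05, all higher. Their median log2 fold change was 0.05, and 5.97% of all genes were higher at that unadjusted p.

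Psmd8, a subunit of the proteasome's regulatory particle, was the only called gene of 37 proteasome and ubiquitin genes tested. It stood at 167, 174 and 174 CPM in Normal and at 311, 239 and 357 CPM in RP, a rise of 0.82 on the log2 scale (SE 0.16, adjusted p = 0.0399), with Cisplatin at 1113 to 1429 CPM. The other 36 were not called. Over all genes, 0.187% were called higher. Of the 37 estimates, 36 were above 0, and 12 had an unadjusted p under 0.05 and a higher level, against 5.97% over all genes. RP lay above Normal without overlap in 23, against 9.65% over all genes. The median was 0.26. Ddi2, a protease that activates the transcription factor of proteasome genes, rose by 0.88 (SE 0.18, adjusted p = 0.0458). Rsc1a1 overlaps Ddi2 and had 97.6% of its count, so its rise of 0.92 cannot be told apart from that of Ddi2. Asb11, a substrate receptor of a cullin ubiquitin ligase, rose by 0.70 (SE 0.13, adjusted p = 0.032) from 105, 117 and 120 CPM to 191, 161 and 205 CPM. The calls of Psmd8 and Ddi2 held in 2 of the 9 fits with a library left out and that of Asb11 in 3. Psmd8 was called without Cisplatin replicate 3 or RP replicate 2.

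Of 30 p53 and DNA damage genes tested, 4 rose, none fell and 26 were not called, while 0.187% of all genes were called higher. Their median was 0.36, and 12 had an unadjusted p under 0.05, all higher, against 5.97% of all genes. RP lay above Normal without overlap in 12 and below in 1, against 9.65% and 9.53% of all genes. Gdf15, a stress cytokine that lowers food intake through a brainstem receptor, gave the largest estimate of any called gene that rose, and lies at chr8:70629393-70632456 (GRCm38, minus strand). It stood at 0.483, 0.116 and 0.722 CPM in Normal, 11 counts in all, and at 14.7, 8.74 and 11.5 CPM in RP. Its Cisplatin values were 25.3, 23.3 and 9.99 CPM, so RP and Cisplatin overlapped. The rise over Normal was 4.69 on the log2 scale (SE 0.51, adjusted p = 0.00075), with RP against Cisplatin at -0.75 (SE 0.33, adjusted p = 0.0762).

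Cdkn1a encodes p21, the inhibitor of cyclin-dependent kinases through which p53 halts the cell cycle, and lies at chr17:29090976-29100727 (GRCm38, plus strand). It stood at 26.8, 41.1 and 35.7 CPM in Normal and at 196, 117 and 209 CPM in RP, a rise of 2.33 (SE 0.22, adjusted p = 0.000385, 5.03-fold). In Cisplatin it stood at 1263 to 1449 CPM, so RP lay between the other groups with no overlap. Eda2r, a receptor of the tumour necrosis factor receptor family, rose by 1.54 (SE 0.31, adjusted p = 0.0478), and its RP libraries (14.2 to 24.5 CPM) overlapped Cisplatin (11.9 to 24 CPM). Trp53inp1, a p53-induced regulator of apoptosis and autophagy, rose by 1.13 (SE 0.22, adjusted p = 0.0425), with RP replicate 2 at 48.1 CPM beside a highest Normal value of 42.4 CPM. Without Normal replicate 1, Normal replicate 3, RP replicate 1 or RP replicate 3, and also without Cisplatin replicate 1 or 2, neither Eda2r nor Trp53inp1 was called. The list then held 2 called genes, Cdkn1a and Gdf15. Bbc3, the apoptosis gene PUMA, was not called by edgeR (1.92, SE 0.43, adjusted p = 0.074). DESeq2 called 6 genes of the list, Bbc3 and Sesn1 in addition, and limma-voom called 2, Cdkn1a and Trp53inp1.

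A further 3 called genes, Zfp365, Gtse1 and Bcl2l1, belong to none of the lists and are placed here for their known roles. Zfp365, a zinc finger protein linked to DNA repair, went from 1.09, 0.463 and 0.602 CPM in Normal to 5.79, 3.87 and 5.65 CPM in RP (2.81, SE 0.39, adjusted p = 0.0039), with Cisplatin at 6.19 to 7.87 CPM. Gtse1, a microtubule protein that restrains p53, was at 0.362, 0 and 0.722 CPM in Normal and 4.44, 3.28 and 2.62 CPM in RP (3.22, SE 0.59, adjusted p = 0.032), at low counts. Bcl2l1, which encodes the anti-apoptotic protein Bcl-xL, rose by 0.98 (SE 0.18, adjusted p = 0.032) from 14.3 to 22.5 CPM to 31.3 to 41.5 CPM. Zfp365 was called in all 9 fits with a library left out, Gtse1 in 5 and Bcl2l1 in 4.

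Metallothioneins bind zinc, copper and heavy metals, and glucocorticoids also raise them. Mt2 was the only called gene of 25 metal and antioxidant genes tested. It stood at 44.1, 76.8 and 58.5 CPM in Normal and at 258, 82.3 and 378 CPM in RP, with Cisplatin at 6994 to 9206 CPM. RP replicate 2 was close to the highest Normal library, and the rise of 4-fold (SE 0.40 on the log2 scale, adjusted p = 0.0425) was called in 3 of the 9 fits with a library left out. Mt1 was not called (1.5, SE 0.34, adjusted p = 0.074). The list median was 0.19, and 6 members had an unadjusted p under 0.05, all higher, against 5.97% of all genes. Over all genes, 0.187% were called higher. Mt2 lost its call without Normal replicate 1 or 3, Cisplatin replicate 1 or 2, or RP replicate 1 or 3, and 3 genes of the list were called without RP replicate 2. Of 28 glucocorticoid and FoxO targets, 2 rose, Mt2 and Per1, and 26 were not called. Their median was 0.40, with 10 higher and 1 lower at an unadjusted p under 0.05, against 5.97% and 6.85% of all genes. That count of 2 went from 0, without Normal replicate 1, Normal replicate 3, RP replicate 1 or RP replicate 3, to 9 without Normal replicate 2 and 4 without RP replicate 2, and it was 1 without Cisplatin replicate 1 or 2. DESeq2 called 8.

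Genes of the circadian clock made up 3 of the 24 that rose, all repressors within the clock's feedback loop. The transcription factor pair CLOCK and BMAL1 activates such genes through the E-box, whose letters are CACGTG. The labels give no time of day at which muscle was collected, and its part in these differences was not tested. The stretches of 250 bases before a transcription start of Ciart (chr3:95882229-95882478, minus strand) and Per1 (chr11:69098699-69098948, plus strand) are shown because both genes rose and both windows hold the E-box, in capitals. They come from RefSeq, build GRCm38.p6. For Per1 the table holds windows for 2 starts, both inside the span that GENCODE gives the gene, and the first listed is shown.
Ciart: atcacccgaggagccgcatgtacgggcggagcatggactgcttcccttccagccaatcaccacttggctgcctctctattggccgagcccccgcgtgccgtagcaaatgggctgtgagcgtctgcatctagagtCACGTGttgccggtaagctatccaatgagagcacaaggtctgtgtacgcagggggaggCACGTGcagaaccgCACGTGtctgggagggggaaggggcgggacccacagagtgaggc
Per1: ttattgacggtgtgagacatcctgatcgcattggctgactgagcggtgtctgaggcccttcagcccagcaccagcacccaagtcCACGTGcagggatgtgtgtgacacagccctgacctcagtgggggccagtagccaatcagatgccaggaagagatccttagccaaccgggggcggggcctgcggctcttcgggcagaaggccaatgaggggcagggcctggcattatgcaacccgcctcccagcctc
The Ciart window holds 3 matches, beginning 116, 58 and 44 bases before that start, and the Per1 window holds 1. The E-box reads alike on either strand. Of 27025 promoter windows of this length 6.05% hold it, 18 hold it 3 or more times, and it is in 4 of the 49 windows matched to called genes (8.16%). The Nr1d1 window does not hold these letters.

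Ciart, which encodes the repressor CHRONO, stood at 1.93, 4.74 and 1.44 CPM in Normal and at 15, 14.4 and 21.2 CPM in RP. It rose by 2.63 (SE 0.35, adjusted p = 0.00317). Cisplatin libraries lay between the groups at 6.94 to 9.16 CPM, and RP was also above Cisplatin (1.01, SE 0.32, adjusted p = 0.0169). Nr1d1 encodes REV-ERB alpha, the haem-binding repressor of Bmal1. It stood at 25.8, 36.7 and 31.5 CPM in Normal and at 60.3, 71.2 and 71.2 CPM in RP (1.11, SE 0.15, adjusted p = 0.00317), with Cisplatin again between at 39.6 to 42.9 CPM. Per1, a period protein that glucocorticoids also induce, stood at 28.6, 30.9 and 22.3 CPM in Normal and at 60.5, 45.8 and 52.9 CPM in RP (0.96, SE 0.16, adjusted p = 0.0153), below Cisplatin at 64.4 to 73.3 CPM. Ciart and Nr1d1 were called in all 9 fits with a library left out and Per1 in 5. The remaining 15 of 18 clock genes tested were not called, among them Arntl, which encodes BMAL1 (-1.05, SE 0.32, adjusted p = 0.188). The median of the list was 0.20, and 0.187% of all genes were called higher. At an unadjusted p under 0.05, 5 clock genes were higher and 1 lower, against 5.97% and 6.85% of all genes. RP lay above Normal without overlap in 6 and below in 2, against 9.65% and 9.53% of all genes.

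Interferon-inducible genes gave the highest median among the lists shown in the plot of list members, 0.71 over 32 tested. Of these 2 rose, none fell and 30 were not called, while 0.187% of all genes were called higher and 0.319% lower. At an unadjusted p under 0.05, 18 of the list were higher and none lower, against 5.97% and 6.85% of all genes. RP lay above Normal without overlap in 17, against 9.65% of all genes. Cisplatin against Normal gave a median of -0.79 for the same genes. Igtp is a GTPase induced by interferon gamma that acts against intracellular parasites. It stood at 13.5, 21.6 and 10.9 CPM in Normal, at 42.2, 30.7 and 55.5 CPM in RP and at 4.58, 5.61 and 4.16 CPM in Cisplatin. It rose by 1.47 over Normal (SE 0.26, adjusted p = 0.0244), while Cisplatin lay below Normal (-1.67, SE 0.29, adjusted p = 0.000274). Tap1, the transporter that carries peptides to class I molecules, stood at 6.04, 8.09 and 10.1 CPM in Normal and at 18.7, 16.6 and 31.3 CPM in RP (1.46, SE 0.27, adjusted p = 0.032). RP replicate 3 was the highest library for both genes. Igtp was called in 5 of the 9 fits with a library left out and Tap1 in 3. Neither was called without Normal replicate 1, Normal replicate 3, RP replicate 1 or RP replicate 3, and the list then held no call. It held 1 without Normal replicate 2 or Cisplatin replicate 2 and 4 without Cisplatin replicate 3. DESeq2 called 5 of the list, with Bst2, Ifit1 and Irgm2 in addition.

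The 250 bases before the start of Igtp (chr11:58199306-58199555, plus strand, GRCm38.p6) are shown because it was the list's called gene with the smallest p. Capitals mark GAAA followed after any 2 bases by GAAA, the core of the element bound by interferon regulatory factors.
Igtp: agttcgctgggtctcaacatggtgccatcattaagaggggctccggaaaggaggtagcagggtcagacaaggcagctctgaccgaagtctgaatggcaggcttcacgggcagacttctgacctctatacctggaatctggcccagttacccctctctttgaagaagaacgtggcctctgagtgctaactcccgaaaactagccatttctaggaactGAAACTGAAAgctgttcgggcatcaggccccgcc
Both strands were searched, and the match begins 34 bases before the start. These letters are in 3.04% of all windows and in 1 of the 49 windows of called genes.

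**Figure D3:**
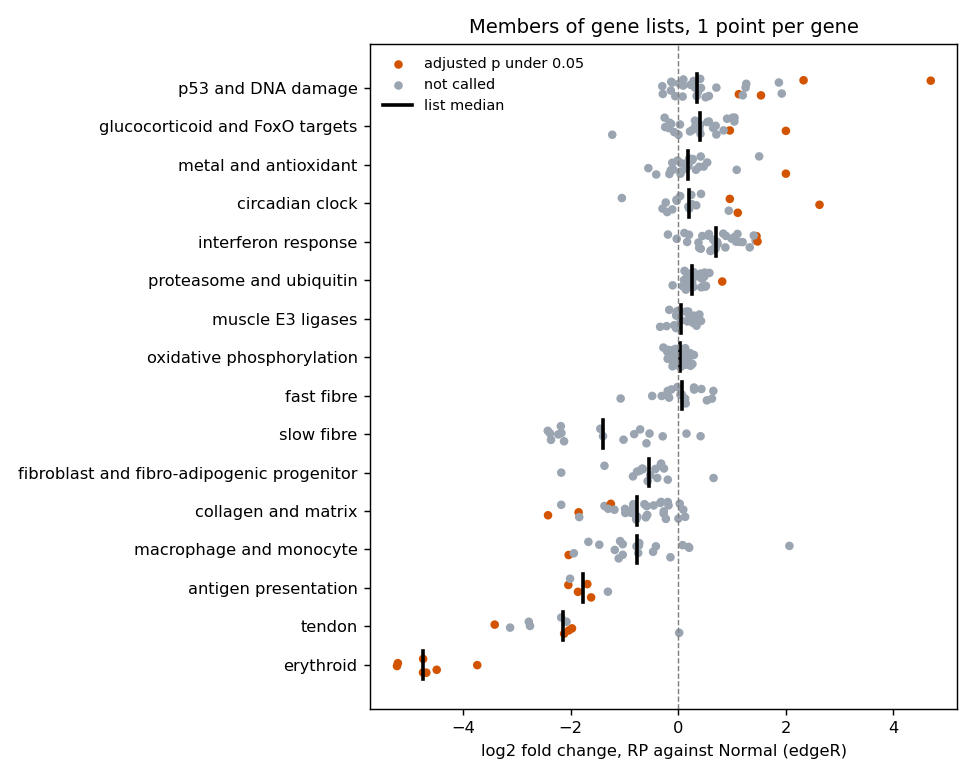
Log2 fold change of RP against Normal (x axis) for each tested member of 16 gene lists (y axis), with called genes in orange, other genes in grey and list medians as black bars. Medians run from -4.74 for erythroid genes to 0.71 for interferon genes. Those of ubiquitin ligase (0.05) and oxidative phosphorylation genes (0.03) lie near 0, and that of proteasome and ubiquitin genes is 0.26.

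In some called genes RP stood outside the other groups rather than between them. Genes called in the same direction in RP against Normal and in RP against Cisplatin, comparisons that share the RP libraries, were higher in RP for Stard3, Slc25a25, Nr1d1, Ciart, Igtp, Tap1 and the gene models Gm18853 and Gm17757. Those models had equal counts in 9 of 9 libraries and are taken as 1 measurement (1.35, SE 0.25, adjusted p = 0.0348). Lower in RP were Trib1, Isg20, Kctd12b and Ppfibp2. Stard3, a cholesterol transfer protein of late endosomes, stood at 15.8, 16.2 and 14.1 CPM in Normal, 31.3, 31.4 and 32.6 CPM in RP and 13.7, 10.6 and 13.7 CPM in Cisplatin. Its RP libraries lay close together, and it rose by 1.05 (SE 0.16, adjusted p = 0.00818). Slc25a25, a calcium-regulated mitochondrial carrier of ATP and phosphate, rose by 1.43 (SE 0.18, adjusted p = 0.00196) from 20.4, 24.1 and 25.5 CPM to 60.8, 52.6 and 74.8 CPM, with Cisplatin at 24.6 to 36.6 CPM. Both genes were called in all 9 fits with a library left out.

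Among the genes below both other groups, Trib1, a pseudokinase that directs ubiquitination of C/EBP factors, stood at 77.7, 67.8 and 64.7 CPM in Normal and 43.3, 41.4 and 41.2 CPM in RP. It fell by 0.74 on the log2 scale (SE 0.13, adjusted p = 0.0209), while Cisplatin stood above Normal at 97.3 to 113 CPM. Isg20, an exonuclease that interferon induces in many cells, fell by 1.32 (SE 0.22, adjusted p = 0.016), from 16.8 to 24.1 CPM to 6.46 to 10.3 CPM. Its direction was opposite to that of Igtp and Tap1. Kctd12b fell by 1.16 (SE 0.22, adjusted p = 0.0371) and Ppfibp2, a liprin scaffold protein, fell by 1.11 (SE 0.20, adjusted p = 0.0285). Trib1 was called in 6 of the 9 fits with a library left out, Isg20 in 5, Ppfibp2 in 3 and Kctd12b in 2.

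**Figure D4:**
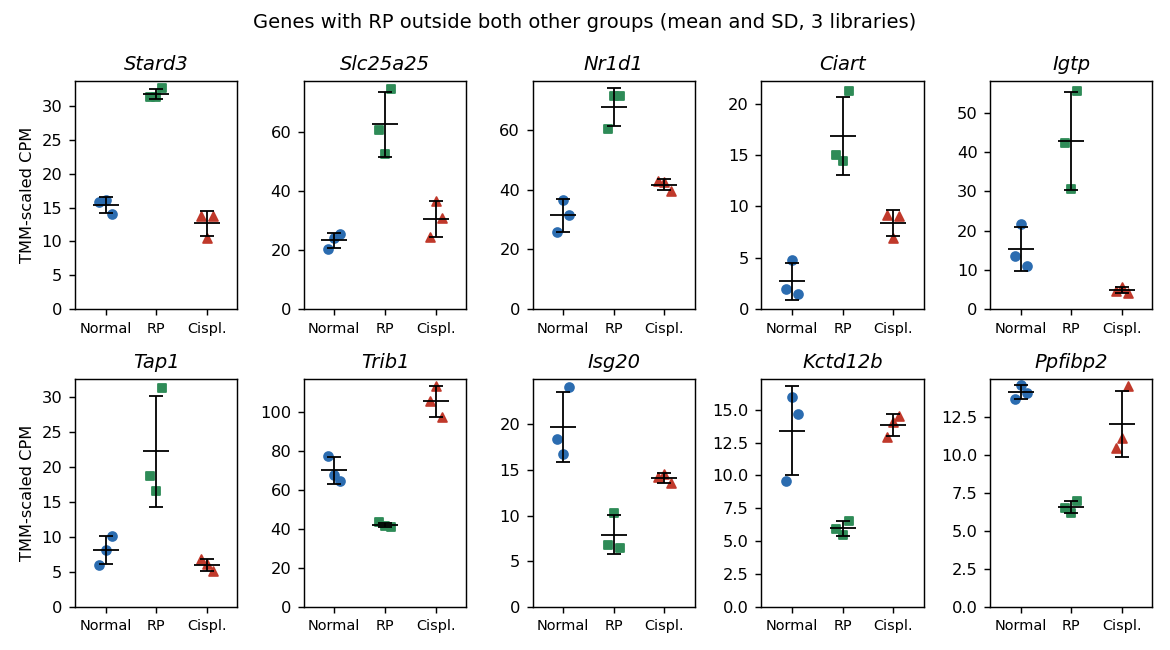
TMM-scaled CPM of 10 genes in Normal, RP and Cisplatin libraries, with 1 point per library and the mean and SD of 3. RP lies above both other groups for Stard3 to Tap1 and below both for Trib1 to Ppfibp2, and Stard3 spans 31.3 to 32.6 CPM in RP.

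Globin and haem genes had the largest falls of the called genes in RP muscle. Of 10 erythroid markers 7 were tested and all 7 fell, with a median of -4.74, while 0.319% of all genes were called lower. The other 3 markers had too few counts to test. Hba-a1, the main alpha globin gene here, stood at 2713, 4641 and 5595 CPM in Normal and at 200, 259 and 46.8 CPM in RP (-4.68, SE 0.50, adjusted p = 0.00075). Hbb-bs, an adult beta globin gene, stood at 1147, 2127 and 2563 CPM in Normal and at 79.7, 125 and 13.9 CPM in RP (-4.74, SE 0.59, adjusted p = 0.00192). RP replicate 3 was far below the other RP libraries and within or near the Cisplatin range, 24.6 to 40.2 CPM for Hba-a1 and 7.05 to 14 CPM for Hbb-bs. The count of Hbb-b1 was 98.7% of that of Hbb-bs and the count of Hbb-b2 was 95.2% of that of Hbb-bt, so each pair shares its reads and gives 1 measurement. Hbb-bt fell by 5.21 (SE 0.59, adjusted p = 0.000902), and Hba-a2 fell by 4.49 (SE 0.43, adjusted p = 0.000385).

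Alas2, the erythroid enzyme that begins haem synthesis, stood at 10.1, 32.6 and 31.9 CPM in Normal and at 2.89, 1.69 and 1.01 CPM in RP (-3.73, SE 0.50, adjusted p = 0.00317). It overlapped Cisplatin at 0.285 to 1.55 CPM. The summed level of the erythroid list was 5529 to 12188 CPM in Normal, 399, 552 and 81.5 CPM in RP and 42.3 to 78.9 CPM in Cisplatin. All 7 genes were called in all 18 alternatives. In bulk muscle, fewer cells of a type and less RNA per cell cannot be told apart.

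Tendon matrix genes stood below untreated muscle in RP. Of 10 tested 4 fell, Fmod, Chad, Thbs4 and Col11a1, and 6 were not called. The median was -2.15, and 0.319% of all genes were called lower. At an unadjusted p under 0.05, 9 tendon genes were lower, against 6.85% of all genes. In 9 RP lay below Normal without overlap, against 9.53% of all genes. Fmod encodes fibromodulin, a proteoglycan that orders collagen fibrils in tendon. It stood at 96, 64.1 and 48.9 CPM in Normal and at 13.6, 19.2 and 15.2 CPM in RP (-2.12, SE 0.26, adjusted p = 0.00192), with Cisplatin at 0.856 to 2.38 CPM. Chad, a cartilage and tendon matrix protein that binds collagen, stood at 24, 11.3 and 9.26 CPM in Normal and at 2.38, 0.894 and 0.908 CPM in RP (-3.41, SE 0.50, adjusted p = 0.00611). Thbs4, a thrombospondin of the muscle and tendon junction, fell by 1.97 (SE 0.34, adjusted p = 0.0244), and Col11a1, a fibril collagen chain, fell by 2.03 (SE 0.39, adjusted p = 0.0371). Normal replicate 1 was the highest library for all 4.

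Tnmd, a membrane protein that marks tendon cells, was at 14.1, 4.86 and 6.14 CPM in Normal and 1.03, 1.99 and 0.605 CPM in RP, and was not called (adjusted p = 0.0711). Scx, the transcription factor that defines tendon cells, had a log2 fold change of 0.02. The list's summed level was 503, 233 and 241 CPM in Normal, 71.9, 106 and 63.6 CPM in RP and 7.51 to 15.5 CPM in Cisplatin. How much tendon each piece of muscle carried is not given in the labels, and its part was not tested. Without Normal replicate 1 only 1 tendon gene was called, and 2 were called without RP replicate 1 or RP replicate 3. In the other direction 7 were called without Cisplatin replicate 3. Fmod was called in all 9 fits with a library left out, Chad in 8, Thbs4 in 6 and Col11a1 in 4.

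Collagen and matrix genes fell in 3 of 35 tested, and 32 were not called. Their median was -0.77, and 0.319% of all genes were called lower. At an unadjusted p under 0.05, 21 of the list were lower, against 6.85% of all genes. In 13 RP lay below Normal without overlap, against 9.53% of all genes. Col1a2, a chain of type I collagen, stood at 1769, 618 and 709 CPM in Normal and at 197, 443 and 220 CPM in RP (-1.85, SE 0.37, adjusted p = 0.0425), with Cisplatin at 26.2 to 29.7 CPM. Col12a1, a collagen on the surface of fibrils, fell by 2.42 (SE 0.35, adjusted p = 0.00602), and Col8a1, a short-chain network collagen, fell by 1.25 (SE 0.24, adjusted p = 0.0372). Col1a1 was not called (-2.17, SE 0.61, adjusted p = 0.149), with RP at 57.2 to 212 CPM and Normal at 293 to 911 CPM. Col12a1 was called in 8 of the 9 fits with a library left out, Col1a2 in 3 and Col8a1 in 2. No gene of the list was called without Normal replicate 1, and 1 without Normal replicate 3, Cisplatin replicate 1, Cisplatin replicate 2, RP replicate 1 or RP replicate 3. Without RP replicate 2, the RP library with the most Col1a2, 9 were called, and DESeq2 also called 9.

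Fibroblast markers did not give a call. Of 16 tested, 7 were lower and 1 higher at an unadjusted p under 0.05, against 6.85% and 5.97% of all genes. The median was -0.54, with DESeq2 calling 1 higher and 1 lower and limma-voom none. Their summed level was 4758 to 6318 CPM in Normal, 3567 to 5312 CPM in RP and 668 to 1344 CPM in Cisplatin, so RP and Normal overlapped. A further 6 called genes, put together here after their values were seen, encode secreted or surface proteins. Wif1, a secreted Wnt inhibitor, stood at 13.3, 3.7 and 3.85 CPM in Normal and at 0.724, 0.795 and 0.807 CPM in RP (-3.14, SE 0.59, adjusted p = 0.0338). Angptl7, a secreted angiopoietin-like protein, fell by 2.21 (SE 0.34, adjusted p = 0.00871) and was called in 7 of the 9 fits with a library left out. Nov, a matricellular protein, fell by 1.77 (SE 0.35, adjusted p = 0.0457), Bmp2, a bone morphogenetic protein, fell by 1.18 (SE 0.23, adjusted p = 0.0371), and Myoc, a secreted glycoprotein, fell by 0.94 (SE 0.19, adjusted p = 0.0425). Cdh13, the T-cadherin that binds adiponectin, fell by 1.08 (SE 0.20, adjusted p = 0.0345) from 55.7 to 71.9 CPM to 24.4 to 36.4 CPM, far above Cisplatin at 2 to 4.16 CPM. Of these, Wif1 was called in 5 of the left-out fits, Cdh13 in 4 and Nov, Bmp2 and Myoc in 2.

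Class II genes display peptides to helper T cells on dendritic cells, macrophages and B cells. Of 6 antigen presentation genes tested out of 11 listed, 4 fell and the other 2, H2-DMa and H2-DMb1, were not called. The median was -1.78, and 0.319% of all genes were called lower. In all 6 RP lay below Normal without overlap, against 9.53% of all genes. Cd74, the invariant chain that guides class II molecules, stood at 53.5, 66.3 and 54.7 CPM in Normal and at 11.7, 18.1 and 12.6 CPM in RP. It fell by 2.04 (SE 0.25, adjusted p = 0.00182), with Cisplatin at 0.595 to 2.47 CPM. H2-Aa, H2-Ab1 and H2-Eb1 encode class II chains. H2-Ab1 fell by 1.86 (SE 0.29, adjusted p = 0.00871), H2-Aa fell by 1.69 (SE 0.31, adjusted p = 0.0338) and H2-Eb1 fell by 1.62 (SE 0.27, adjusted p = 0.016). RP replicate 1 was the lowest RP library for all 4. Cd74 was called in all 9 fits with a library left out, H2-Ab1 in 7, H2-Eb1 in 6 and H2-Aa in 3. The list's count of 4 dropped to 1 without Normal replicate 1 or RP replicate 1 and to 2 without RP replicate 3.

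The 250 bases before the start of H2-Aa (chr17:34287824-34288073, minus strand, GRCm38.p6) are shown because class II promoters share the Y box, CTGATTGG, in capitals.
H2-Aa: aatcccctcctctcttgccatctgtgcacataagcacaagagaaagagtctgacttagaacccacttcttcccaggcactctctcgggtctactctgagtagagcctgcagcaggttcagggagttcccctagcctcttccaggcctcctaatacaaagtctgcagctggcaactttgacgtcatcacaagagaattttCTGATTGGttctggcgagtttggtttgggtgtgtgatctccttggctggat
The match begins 51 bases before the start. Searched on both strands, these letters are in 4.07% of all windows and in 4 of the 49 windows of called genes (8.16%).

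Monocyte and macrophage genes fell in 1 of 20 tested, and 19 were not called, while 0.319% of all genes were called lower. Ccr2, the chemokine receptor that brings monocytes out of bone marrow, stood at 13.5, 10.6 and 13.4 CPM in Normal and at 3.72, 2.58 and 2.83 CPM in RP (-2.04, SE 0.30, adjusted p = 0.00602). It was called in all 9 fits with a library left out. The list's median was -0.76, with 8 lower and 1 higher at an unadjusted p under 0.05, against 6.85% and 5.97% of all genes. Of the estimates 16 were below 0 and 4 above. RP lay below Normal without overlap in 10 and above in 1, against 9.53% and 9.65% of all genes. The count of 1 was 3 without Cisplatin replicate 3 and 2 without Cisplatin replicate 2, and limma-voom called 3 and DESeq2 4. Csf1r, the receptor that sustains macrophages, was not called (-1.67, SE 0.36, adjusted p = 0.0672), with RP at 14.3 to 24.8 CPM and Normal at 50.8 to 65 CPM. The summed level of the list was 405 to 496 CPM in Normal and 242 to 357 CPM in RP. Outside the list, Retnla, which encodes a secreted protein of alternatively activated macrophages and lies at chr16:48842551-48844461 (GRCm38, plus strand), stood at 64.3, 76.6 and 63.2 CPM in Normal and at 13.7, 22.5 and 14.4 CPM in RP, with no overlap. It fell by 2.01 (SE 0.21, adjusted p = 0.000687), with Cisplatin at 1.14 to 2.02 CPM, and was called in all 18 alternatives. Clec7a, the beta-glucan receptor dectin-1 of myeloid cells, fell by 3.16 (SE 0.60, adjusted p = 0.0371) on 14 counts in RP, and was called in 3 of the 9 left-out fits. Genes of the lymphocyte list were nearly all absent from the counts or too low to test, with 1 of 19 tested.

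Muscle fibre genes gave few calls. None of 77 oxidative phosphorylation genes was called by edgeR, DESeq2 or limma-voom, none had an unadjusted p under 0.05, and the median was 0.03, beside -0.47 for Cisplatin against Normal. None of 77 cytosolic ribosomal protein genes was called by any of the 3 tools either, and the median was 0.14. At an unadjusted p under 0.05, 3 were higher, against 5.97% of all genes. Of their estimates 69 were above 0 and 8 below, and RP lay above Normal without overlap in 19, against 9.65% of all genes. None of 19 fast fibre genes was called by edgeR (4 higher and 1 lower at an unadjusted p under 0.05, DESeq2 2 higher, limma-voom none), and the median was 0.07. Actc1, the cardiac alpha actin that fetal and regenerating fibres use, was the only called gene of 18 genes of embryonic and regenerating muscle. Of all genes, 0.319% were called lower. Actc1 stood at 1534, 817 and 803 CPM in Normal and at 248.7, 474 and 136 CPM in RP (-1.88, SE 0.36, adjusted p = 0.0371), with Cisplatin at 33.3 to 41.6 CPM. The call was lost without Normal replicate 1 or 3, Cisplatin replicate 1 or 2, or RP replicate 1 or 3, and with only the 6 Normal and RP libraries in the fit. The gene model C130080G10Rik neighbours Actc1 and fell by 3.08 (SE 0.58, adjusted p = 0.036). The strand setting of the counting is not stated, so reads of neighbouring or overlapping genes cannot be fully told apart.

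Slow fibre genes had a median of -1.40 over 17 tested, yet none was called. At an unadjusted p under 0.05, 11 were lower and none higher, against 6.85% and 5.97% of all genes. The smallest adjusted p was 0.178, and the groups overlapped in all 17. Normal replicate 2 stood apart. Myh7, the slow myosin heavy chain, was at 154, 16 and 221 CPM in Normal and at 15.1, 23.2 and 34.5 CPM in RP. Myl3, a slow myosin light chain, was at 1124, 102 and 2400 CPM in Normal and at 133, 287 and 285 CPM in RP. Without Normal replicate 2, 3 genes of this list were called lower. Neither DESeq2 nor limma-voom called any.

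Further called genes belong to metabolism and signalling. Pfkfb3, the enzyme that makes fructose 2,6-bisphosphate and so speeds glycolysis, was the only called gene of 27 glycolysis and glycogen genes. Of all genes, 0.187% were called higher. Pfkfb3 stood at 47.5, 67.4 and 31.8 CPM in Normal and at 163, 180 and 145 CPM in RP. The rise was 1.73 (SE 0.24, adjusted p = 0.0045), RP overlapped Cisplatin (155 to 254 CPM), and the call held in all 18 alternatives. Cish, a feedback inhibitor of cytokine and growth hormone signalling through STAT5, stood at 38.6, 40.4 and 62.1 CPM in Normal and at 18.6, 14.6 and 10.7 CPM in RP. It fell by 1.68 (SE 0.27, adjusted p = 0.0151) and overlapped Cisplatin at 7.26 to 15.7 CPM. Map2k6, a kinase that activates p38, fell by 1.13 (SE 0.21, adjusted p = 0.0324) and stood at 15.4 to 16.7 CPM in Normal and 6.2 to 8.64 CPM in RP. Cish was called in 7 of the 9 left-out fits and Map2k6 in 4.

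The remaining 8 called genes have varied roles. Hnrnpa1, an RNA-binding splicing factor with many near-identical copies in the genome, rose by 0.93 (SE 0.19, adjusted p = 0.0458), and Ctxn3, a small membrane protein, by 1.17 (SE 0.24, adjusted p = 0.0478). Khdrbs3, a splicing regulator, fell by 1.35 (SE 0.26, adjusted p = 0.0372), and Rhobtb1 fell by 1.18 (SE 0.21, adjusted p = 0.0247). Zfp703, a transcriptional repressor, fell by 1.03 (SE 0.18, adjusted p = 0.0244), and Pard3b, a cell polarity protein, fell by 0.87 (SE 0.15, adjusted p = 0.0244). Pam, the enzyme that amidates peptide hormones, fell by 0.75 (SE 0.15, adjusted p = 0.0458), and Ptms, a small acidic nuclear protein, fell by 0.65 (SE 0.13, adjusted p = 0.0468). Most of these calls were lost when any 1 of several libraries was left out. Among the 9 fits with a library left out, Rhobtb1 and Zfp703 were called in 6, Pard3b in 4, Khdrbs3 and Ctxn3 in 3, Hnrnpa1 and Pam in 2 and Ptms in 1.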

How the data were processed

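RNA from 9 gastrocnemius samples was sequenced from transcript 3′ ends with a QuantSeq kit, per the labels' protocols. The authors deposited raw counts per gene for each sample. Bowtie2, edgeR and mm10 are named in the submitters' processing notes, while the strand setting and annotation were not stated. The members and gene lists were chosen with earlier results of these data known.

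The counts of 23282 rows were summed by symbol (79 rows shared 35 symbols), giving 23238 symbols, of which 5145 were at 0 in all libraries and 12859 passed edgeR's filterByExpr. edgeR 4.0.16 (R 4.3.3) was fitted to all 9 libraries with TMM scaling, 1 coefficient per group and the quasi-likelihood test, with Benjamini-Hochberg adjustment. Totals per library were 8196030 to 10678342, which limits precision for genes of few counts. Genes were named by rule (Fbxo32, Trim63, the 20 largest rises and falls whose groups do not overlap and whose mean reaches 5 CPM, up to 4 called members per list, the 12 smallest p), which gave 43 of the 65 called. The other 22 and uncalled list members were named after their values were seen. Positions come from GENCODE M21. Alternatives used other scalings, filters and tools (DESeq2 1.42.0, limma 3.58.1), 6 libraries, a replicate block, no Rn45s, and each library left out. Replicates differed by more than sampling noise (chi-square per degree of freedom 11.3 to 28.9). On simulated data for this comparison (12551 genes tested), 64 of 100 genes changed by 1 on the log2 scale and 95 of 100 changed by 2 were called, with 15 of 12351 unchanged genes. Changed genes were drawn only from those above a minimum mean count. Cisplatin libraries were simulated at Normal levels, and each gene varied independently of the others. The real data differ in all these respects, so the shares do not give the recovery to expect in them.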

Additional observations from a re-analysis of the deposited data

How the results depend on the processing

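Precision is limited by 3 libraries a group and, for genes such as Gtse1 or Clec7a, by few counts. The 65 calls (24 higher, 41 lower) became 123 and 170 with no filter on low counts (18093 genes tested), 103 and 126 with DESeq2, and 36 and 24 with library size only. Leaving out 1 library gave 8 to 59 higher and 14 to 62 lower. Trim63 ran from -0.051 without RP replicate 3 to 0.35 without RP replicate 2. Fbxo32 ran from 0.14 to 0.66 without the same libraries. Fewer samples or another number of genes tested change the adjustment, and beyond that the cause was not tested.

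The numbers of called members of the lists moved as follows, with the values above as the base. With no filter on low counts 12 collagen genes, 9 tendon genes, 9 slow fibre genes, 5 macrophage genes, 3 fibroblast genes and 1 fast fibre gene were lower. The same setting gave 9 glucocorticoid and FoxO targets, 7 p53 genes, 7 interferon genes, 3 metal genes, 3 glycolysis genes, 2 fast fibre genes and 1 fibroblast gene higher. DESeq2 gave 9 collagen, 7 tendon, 4 macrophage and 1 fibroblast genes lower, and 8 glucocorticoid, 6 p53, 5 interferon, 2 metal, 2 glycolysis, 2 fast fibre and 1 fibroblast genes higher. With library size only 1 collagen and 0 embryonic muscle genes were lower and 3 glucocorticoid genes higher. limma-voom gave 2 p53 and 0 metal genes higher and 3 macrophage genes lower. The 5 CPM filter gave 2 collagen genes lower, 0 metal genes and 1 glucocorticoid gene higher. With the 6 libraries only, 3 macrophage and 0 embryonic genes were lower, and 0 metal, 1 glucocorticoid, 1 fibroblast and 3 interferon genes were higher.

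With 1 library left out, the called members ranged from 0 to 9 for collagen genes, 1 to 7 for tendon, 1 to 4 for antigen presentation, 1 to 3 for macrophage, 0 to 3 for slow fibre, 0 to 2 for fibroblast, 0 to 1 for fast fibre and 0 to 1 for embryonic muscle genes that were lower. They ranged from 0 to 9 for glucocorticoid, 2 to 5 for p53, 0 to 4 for interferon, 2 to 4 for clock, 0 to 3 for metal, 1 to 2 for glycolysis, 0 to 1 for proteasome and 0 to 1 for fibroblast genes that were higher.

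The replicate numbers did not pair the samples. Deviations of same-numbered Normal and RP libraries correlated at 0.0132, -0.124 and 0.0217, and not every library correlated best with its own number. With the replicate block, 19 genes were higher and 42 lower, with 2 p53, 0 metal and 1 glucocorticoid genes higher and 2 macrophage genes lower.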

Other observations

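Other gene groups gave no called member with edgeR. Their counts at an unadjusted p under 0.05 stand beside 5.97% higher and 6.85% lower over all genes tested. Of 25 autophagy and lysosome genes tested, 8 were higher and 1 lower at an unadjusted p under 0.05, with a median log2 fold change of 0.11. Lipid and cholesterol synthesis genes had a median of -0.29 over 27 tested, with 6 lower and 1 higher at that level, beside -1.32 for Cisplatin against Normal. Heat shock genes had a median of -0.18 over 20 tested, with 3 lower. Of 26 immediate early genes 6 were lower and 2 higher, with a median of -0.07. Fatty acid oxidation genes (32 tested, 2 higher and 2 lower) had a median of 0.15, and integrated stress and unfolded protein genes (18 tested, 2 higher and 2 lower) one of 0.01. Growth factor and mTORC1 genes (26 tested, 4 higher and 4 lower) had a median of -0.11, cell cycle genes (17 tested, 1 lower) -0.16 and inflammatory genes (23 tested, 4 higher and 1 lower) 0.05. Neuromuscular junction and denervation genes (15 tested, 1 higher and 2 lower) had a median of 0.11. Over these groups limma-voom called Ctsl, a lysosomal protease, and DESeq2 called Ctsl, Map1lc3a, Mlycd, Fdft1, Klf10, Lcn2, Eif4ebp1, Igfbp5 and Inhba.

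Markers of the other cells a muscle sample can hold were not called by edgeR either, and DESeq2 called Car3 among adipocyte and Lcn2 among neutrophil markers. Over all genes, 5.97% were higher and 6.85% lower at an unadjusted p under 0.05. Endothelial markers had a median of 0.00 over 17 tested (1 higher and 4 lower at an unadjusted p under 0.05), and smooth muscle and pericyte markers 0.06 over 13 (1 higher). Adipocyte markers stood at -0.05 over 12 (2 lower), Schwann cell markers at 0.21 over 13 (none past that level), keratinocyte markers at -0.42 over 2 (none) and neutrophil markers at -1.08 over 7 (1 higher and 1 lower). The neutrophil marker Lcn2, a stress-induced iron carrier, was at 0.483, 1.04 and 0.963 CPM in Normal, 5.17, 1.29 and 7.77 CPM in RP and 46.4 to 105 CPM in Cisplatin, and was not called by edgeR (2.49, SE 0.64, adjusted p = 0.116). The single gene tested from the lymphocyte list, Ptprc, had a log2 fold change of -0.48 (adjusted p = 0.572). Ptprc is not particular to lymphocytes, so its value does not describe them.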
